A study of Bos taurus with 3 samples.

Results

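Carbonic anhydrases were followed through the epithelial cells of the bovine rumen, as 7 genes (CA1, CA2, CA4, CA9, CA12, CA13 and CA14) of the 19533 genes named in the deposited matrix. The members were found in the matrix by their gene symbols. Their levels were read in cell states that were set by 5 other genes, DLK2, GJA1, IGFBP5, FABP4 and TM4SF1. The file names 14 carbonic anhydrase genes in all, and the other 7 are used here only for comparison.

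Carbonic anhydrases are zinc enzymes that turn carbon dioxide and water into bicarbonate and a proton, and back. In the rumen wall they are known as a source of the bicarbonate that is exchanged for volatile fatty acid (VFA) anions and of the protons that sodium-proton exchangers carry. CA1, CA2 and CA13 are cytosolic enzymes, CA4 is held at the outer cell surface by a lipid anchor, and CA9, CA12 and CA14 span the membrane with the catalytic domain outside the cell. CA9 is also a textbook target of the hypoxia-inducible factor.

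The material was ventral rumen sac of 3 adult lactating Holstein cows under 1 condition, with no treatment and no control group. Each cow gave 1 droplet library (10x Genomics 3′ chemistry), in which every captured transcript carries a unique molecular identifier (UMI) so that PCR copies count once. The matrix held 20728 cells, of which the authors had kept only those they took for epithelial, and cows 1, 2 and 3 contributed 3369, 7401 and 9958 of them. A cow is therefore the replicate of every comparison, and cells of 1 cow are not.

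Totals ran from 38912809 UMIs in cow 1 to 104189434 in cow 3, and the median cell held between 9747 and 12051 UMIs. The median share of mitochondrial UMIs was highest in cow 1 (17.2%) and lowest in cow 2 (10.8%). Of 20693 distinct barcode sequences, 35 occurred in more than 1 cow. KRT14 and KRT5, defining keratins of basal stratified epithelium, reached 850587 and 1243591 UMIs. Of the erythroid markers, HBB had 1 UMI, HBM 1, HBA 51 and AHSP 425 over all cells, and the other 4 are not named in the file. The 3 fibroblast markers named in the file (COL1A1, COL1A2 and DCN) had 5, 4 and 1 UMIs. Other markers were above these, with 819 UMIs for CD68 and 211 for CD3E among the 4 immune markers, 563 for VWF among the 4 of endothelium and 102 for DES among the 3 of smooth muscle, while PTPRC had 38, PECAM1 4 and CDH5 3. Their part in the results was not tested. Summed, the 4 erythroid markers stood at 0.0170, 0.0235 and 0.0181 UMIs per 10000 in cows 1, 2 and 3.

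CA1 and CA12 made up most of the carbonic anhydrase transcripts. CA1 gave 18430 UMIs, which is 58.4% of the UMIs of the 7 members, and CA12 gave 9832, which is 31.1%. CA9 and CA13 followed with 1737 and 1400 UMIs. The other 3 members were at the edge of detection, with 86 UMIs for CA2, 59 for CA4 and 22 for CA14 in the whole matrix. No cell held more than 2 UMIs of CA2 or CA4, or more than 1 of CA14. UMIs tag the 3′ end of a transcript once, so these counts were not divided by transcript length. CA2 is known as the high-activity cytosolic form of many secretory epithelia, and it lies near CA1, CA3 and CA13 in the RefSeq annotation of assembly ARS-UCD2.0.

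CA1 separated the cows more than almost any other gene. Over all cells its level was 1.04, 1.41 and 0.0959 UMIs per 10000 UMIs in cows 1, 2 and 3. Cow 3 was low, and cow 2 stood 14.7-fold above it, the 24th widest ratio between cows among 7716 genes with at least 1000 UMIs, where the median ratio was 1.46. In each of the 8 cell states described next, cow 2 was the highest and cow 3 the lowest, with ratios from 8.39 in DLK2+ cells to 19.1 in GJA1+ IGFBP5+ cells. Cow 2 alone supplied 72.7% of all CA1 UMIs and cow 3 5.42%, although cow 3 had the most cells.

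CA12 put the cows in another order. Its levels were 0.879, 0.307 and 0.336 per 10000 in cows 1, 2 and 3, so cow 1 was high and the other cows were close together (a ratio of 2.86 from highest to lowest). CA9 stayed within 0.0628 to 0.0814 per 10000 over the 3 cows and CA13 within 0.0455 to 0.0707. In cows 1, 2 and 3, CA1 was 50.1%, 76.0% and 17.0% of the members' UMIs, and CA12 was 42.5%, 16.5% and 59.5%. CA1 was thus the leading member in cows 1 and 2, and CA12 in cow 3.

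**Figure D1:**
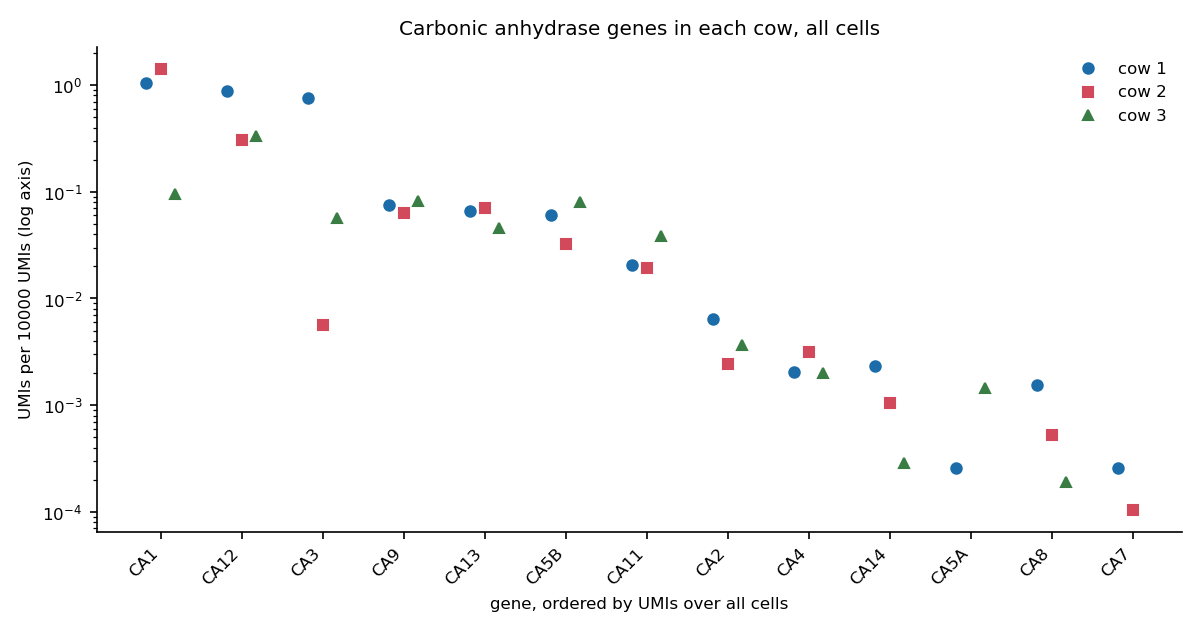
Level of each carbonic anhydrase gene in each cow over all cells, in UMIs per 10000 UMIs on a log axis, with genes ordered by their UMIs over all cows. CA1 lies 14.7-fold lower in cow 3 than in cow 2 while CA9 differs 1.30-fold between cows; CA10 (no UMI) is not drawn, and a cow at 0 has no point (CA5A in cow 2, CA7 in cow 3).

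Other measures also differed between the cows. Summed over 15 immediate-early genes, which mark a response to handling or signalling, the level was 66.1, 106 and 22.3 per 10000 in cows 1, 2 and 3, the same order of cows as for CA1. Within each cow that sum was lower in GJA1+ IGFBP5+ cells (35.1, 59.5 and 16.0) than in DLK2+ cells (92.7, 109 and 24.5), while CA1 was higher there. In that contrast 12 of the 15 genes fell and 1 rose, where 27.5% of all genes fell and 21.4% rose. Of the genes that set the states, TM4SF1 differed 9.37-fold between cows and GJA1 4.99-fold. The part of any of these, or of the animal itself, in the level of CA1 was not tested, and animal and library cannot be told apart with 1 library per cow.

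Cells were placed in 8 states that exclude each other, a gene being positive in a cell with at least 1 UMI. GJA1 encodes the gap junction protein connexin 43, IGFBP5 an insulin-like growth factor binding protein, FABP4 a fatty acid binding protein, TM4SF1 a membrane protein of the L6 family and DLK2 a Notch pathway ligand relative. The states, with their numbers of cells, were GJA1+ IGFBP5+ (1644), GJA1+ TM4SF1+ without IGFBP5 (215), GJA1+ IGFBP5- TM4SF1- (240), IGFBP5+ FABP4+ without GJA1 (1237), TM4SF1+ without GJA1 (5294), DLK2+ without GJA1 or TM4SF1 (4724), FABP4+ with none of the other 4 (235) and the remaining cells (7139). The cows differed in these numbers. FABP4+ cells without DLK2 numbered 26, 30 and 179 in cows 1, 2 and 3, and GJA1+ IGFBP5- TM4SF1- cells 117, 32 and 91. TM4SF1+ cells without GJA1 were 15.8%, 47.9% and 12.2% of the cells of each cow, and the remaining cells 29.0%, 14.1% and 51.4%. A state gene that a name leaves out may be present. The GJA1+ IGFBP5- TM4SF1- cells held 59, 22 and 119 UMIs of FABP4 and 80, 29 and 18 of DLK2 in cows 1, 2 and 3, and the DLK2+, TM4SF1+ and remaining cells held IGFBP5. TM4SF1+ cells without GJA1 held 489, 3712 and 348 UMIs of DLK2 in these cows, beside 1784, 3533 and 3091 in DLK2+ cells. The TM4SF1+ state is thus not free of DLK2. GJA1+ IGFBP5+ cells held 683, 2905 and 274 UMIs of TM4SF1 in these cows. The gene that parts them from GJA1+ TM4SF1+ cells is therefore IGFBP5. DLK2+ cells served as the reference. GJA1+ IGFBP5+ cells were deeper than DLK2+ cells, with a median of 16677 against 8860 UMIs, and had a higher mitochondrial share, 16.6% against 10.6%, so levels are given per 10000 UMIs of the summed state.

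CA1 was highest in GJA1+ IGFBP5+ cells and lowest in DLK2+ cells. In GJA1+ IGFBP5+ cells cows 1, 2 and 3 had 1.80, 3.53 and 0.185 UMIs of CA1 per 10000, and in DLK2+ cells they had 0.370, 0.478 and 0.0570. Values of the states overlap when the cows are pooled, because cow 3 is low in every state, but within every cow the GJA1+ IGFBP5+ cells were higher, by 4.87, 7.39 and 3.25 times. The log2 fold change was 2.54 ± 0.14 (SE, n = 3 cows; adjusted p = 6.5e-16). That p comes from edgeR's quasi-likelihood test on 10895 genes with the cow as a block, corrected by the method of Benjamini and Hochberg, as do the adjusted p-values that follow. The SE is that of the fit, with a spread pooled over all 24 sums of state and cow. Here and below it does not measure the spread of the ratios of the 3 cows. By fold change, CA1 ranked 138 of the 10895 genes from the highest down.

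CA1 was also above DLK2+ cells in each of the other 6 states, in every one of the 3 cows. The 7 contrasts share the DLK2+ sums and are not independent of each other. The log2 fold changes were 2.34 ± 0.16 in GJA1+ TM4SF1+ cells, 2.12 ± 0.14 in IGFBP5+ FABP4+ cells without GJA1, 1.86 ± 0.23 in FABP4+ cells without DLK2, 1.55 ± 0.21 in GJA1+ IGFBP5- TM4SF1- cells, 1.12 ± 0.14 in TM4SF1+ cells without GJA1 and 1.06 ± 0.13 in the remaining cells (SE, n = 3 cows). Adjusted p from the same edgeR fit lay between 3.4e-13 and 6.5e-06. The value for GJA1+ IGFBP5- TM4SF1- cells depended on the gate, at 2.64 with gates at 2 UMIs and 2.54 with cells thinned to 5000 UMIs. Other states moved too. Over the alternative settings CA1 ran from 1.59 to 2.48 in FABP4+ cells without DLK2 and from 1.96 to 2.67 in IGFBP5+ FABP4+ cells. In IGFBP5+ FABP4+ cells CA1 ranked 54 in the same way.

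In the order of mean levels, CA1 ran from GJA1+ IGFBP5+ (1.84 ± 1.67 per 10000, SD, n = 3 cows) through GJA1+ TM4SF1+ (1.64 ± 1.45), IGFBP5+ FABP4+ (1.36 ± 1.12), FABP4+ without DLK2 (1.16 ± 1.04), GJA1+ IGFBP5- TM4SF1- (1.01 ± 0.808), the remaining cells (0.658 ± 0.506) and TM4SF1+ (0.652 ± 0.526) to DLK2+ (0.302 ± 0.218). Each step of this order was smaller than the SD of the higher state, because the cows lie far apart. The step from GJA1+ TM4SF1+ to IGFBP5+ FABP4+, the step from GJA1+ IGFBP5- TM4SF1- to the remaining cells and the step from TM4SF1+ to DLK2+ went the same way in all 3 cows, and the other 4 steps did not. Between GJA1+ IGFBP5+ and GJA1+ TM4SF1+ cells the log2 difference of CA1 was 0.19 ± 0.15 (SE; adjusted p = 0.61, edgeR), not past the test.

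CA12 was highest in GJA1+ IGFBP5+ cells too, with a smaller change. Cows 1, 2 and 3 had 1.32, 0.520 and 0.511 UMIs per 10000 there and 0.567, 0.226 and 0.284 in DLK2+ cells. Cow 1 was the highest in both states, and each cow was higher in GJA1+ IGFBP5+ cells, by 2.33, 2.30 and 1.80 times. The log2 fold change was 1.20 ± 0.10 (SE, n = 3 cows; adjusted p = 5.0e-12, edgeR). The paper had already listed CA12 among genes uniquely high in its IGFBP5+ channel-gap-like spinous cells, a cluster of these same cells. This result is therefore not independent of the paper's.

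CA12 also rose in GJA1+ IGFBP5+ against GJA1+ TM4SF1+ cells. The GJA1+ TM4SF1+ cells had 0.857, 0.333 and 0.406 UMIs per 10000 in cows 1, 2 and 3, each below the same cow's GJA1+ IGFBP5+ cells. The log2 fold change was 0.66 ± 0.15 (SE, n = 3 cows; adjusted p = 0.0070, edgeR). Of all genes tested, 3.00% were called in that contrast (1.38% higher, 1.62% lower). Without cow 1 it was 0.59 (adjusted p = 0.071) and without cow 2 0.64 (adjusted p = 0.11), both short of the threshold in edgeR. CA1 was not called in this contrast, and whether the genes differ in it was not tested.

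Against DLK2+ cells, CA12 rose in 5 further states by less than 1 on the log2 scale. The values were 0.64 ± 0.11 in IGFBP5+ FABP4+ cells, 0.63 ± 0.17 in GJA1+ IGFBP5- TM4SF1- cells, 0.54 ± 0.16 in GJA1+ TM4SF1+ cells, 0.40 ± 0.10 in the remaining cells and 0.30 ± 0.10 in TM4SF1+ cells without GJA1 (SE, n = 3 cows). Each of these was higher in 3 of 3 cows, with adjusted p from edgeR between 2.0e-05 and 0.032. The call in TM4SF1+ cells was lost without cow 1 (adjusted p = 0.10), without cow 2 (0.24) and in DESeq2 (0.058), all adjusted p-values of fits across all genes. Thinning cells to 5000 UMIs gave 0.94 in GJA1+ IGFBP5- TM4SF1- cells (adjusted p = 2.8e-05) and ended the calls in TM4SF1+ cells (adjusted p = 0.051) and in GJA1+ TM4SF1+ cells (0.065), also in edgeR. Leaving out cow 2 also ended the calls in GJA1+ TM4SF1+ cells (adjusted p = 0.062), in GJA1+ IGFBP5- TM4SF1- cells (0.053) and in the remaining cells (0.21). The call in GJA1+ IGFBP5- TM4SF1- cells was lost without cow 3 (adjusted p = 0.080) and that in the remaining cells without cow 1 (0.12), again in edgeR.

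FABP4+ cells without DLK2 were the exception for CA12, at 0.294, 0.321 and 0.355 UMIs per 10000. Cow 1, whose CA12 was the highest in every other state, was the lowest there, from 6 UMIs in 26 cells. The log2 difference from DLK2+ cells was 0.19 ± 0.19 (SE; adjusted p = 0.65, edgeR), and with gates at 2 UMIs it was 0.62 and called (adjusted p = 0.0024). With gates at 1 UMI CA1 was called in these same cells and CA12 was not, and the difference between them was not tested.

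CA13 was lower in GJA1+ IGFBP5+ than in DLK2+ cells. In DLK2+ cells cows 1, 2 and 3 had 0.119, 0.0939 and 0.0478 UMIs per 10000, and in GJA1+ IGFBP5+ cells they had 0.0292, 0.0394 and 0.0255. All 3 values of the GJA1+ IGFBP5+ cells lay below all 3 of the DLK2+ cells, and the ratios within the cows were 0.245, 0.420 and 0.533. The log2 fold change was -1.31 ± 0.20 (SE, n = 3 cows; adjusted p = 2.9e-06, edgeR). The counts behind it are small, with 90 UMIs of CA13 in the GJA1+ IGFBP5+ cells and 353 in the DLK2+ cells.

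CA13 also fell in IGFBP5+ FABP4+ cells (log2 fold change -0.73 ± 0.21, SE, n = 3 cows; adjusted p = 0.010, edgeR) and in GJA1+ TM4SF1+ cells (-1.03 ± 0.40; adjusted p = 0.048), lower in 3 of 3 cows both times. The second rests on 14 UMIs in the GJA1+ TM4SF1+ cells, and it was -0.60 without cow 1 (adjusted p = 0.26) and -1.29 without cow 2 (adjusted p = 0.17) in the same fit. DESeq2 (adjusted p = 0.066), gates at 2 UMIs (0.12) and leaving out cells over 25000 UMIs (0.11) also ended that call. The first was -0.41 without cow 2 (adjusted p = 0.38) and -1.38 with gates at 2 UMIs (adjusted p = 0.00071, edgeR). In the other 4 states CA13 lay between -0.49 and -0.32 on the log2 scale against DLK2+ cells, none of them past the test. With gates at 2 UMIs instead of 1, which move cells between states, CA13 was called in 3 of these 4, at -1.40 in GJA1+ IGFBP5- TM4SF1- cells (adjusted p = 0.032), -0.66 in TM4SF1+ cells (0.012) and -1.16 in FABP4+ cells without DLK2 (0.047), all adjusted p-values from edgeR. At 1 UMI, CA13 in FABP4+ cells without DLK2 was 1.24 and 1.07 times its DLK2+ level in cows 2 and 3. Cow 1 had 0 UMIs there, in 26 cells. In the remaining cells the log2 value ran from -0.58 to -0.12 with 1 cow left out.

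CA9 was lower in GJA1+ IGFBP5+ than in DLK2+ cells, by the smallest change of the 4 members tested there. It had 0.0988, 0.0714 and 0.0864 UMIs per 10000 in DLK2+ cells of cows 1, 2 and 3, against 0.0623, 0.0444 and 0.0650 in GJA1+ IGFBP5+ cells. All 3 values of the GJA1+ IGFBP5+ cells were below all 3 of the DLK2+ cells. The log2 fold change was -0.46 ± 0.16 (SE, n = 3 cows; adjusted p = 0.019, edgeR), and it lost its call when any 1 cow was left out (adjusted p between 0.061 and 0.12). With cells thinned to 5000 UMIs the log2 fold change was -1.38 ± 0.37 (adjusted p = 0.0027, edgeR), with CA9 in 12 of the 787 GJA1+ IGFBP5+ cells then left. In the other 6 states CA9 differed from DLK2+ cells by -0.64 to -0.13 on the log2 scale, with no call. The -0.64 belongs to GJA1+ IGFBP5- TM4SF1- cells, where the ratios to DLK2+ cells were 0.236, 2.17 and 0.689 in cows 1, 2 and 3. These ratios rest on 2, 5 and 6 UMIs of CA9 in that state, those of cow 2 in 32 cells. Cow 2 went the other way on these few counts, and with 1 cow left out the value ran from -1.14 to -0.024. Gates at 2 UMIs ended the call in GJA1+ IGFBP5+ cells (adjusted p = 0.098) and gave 1 in GJA1+ IGFBP5- TM4SF1- cells (log2 fold change -1.84, adjusted p = 0.0036, edgeR).

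**Figure D2:**
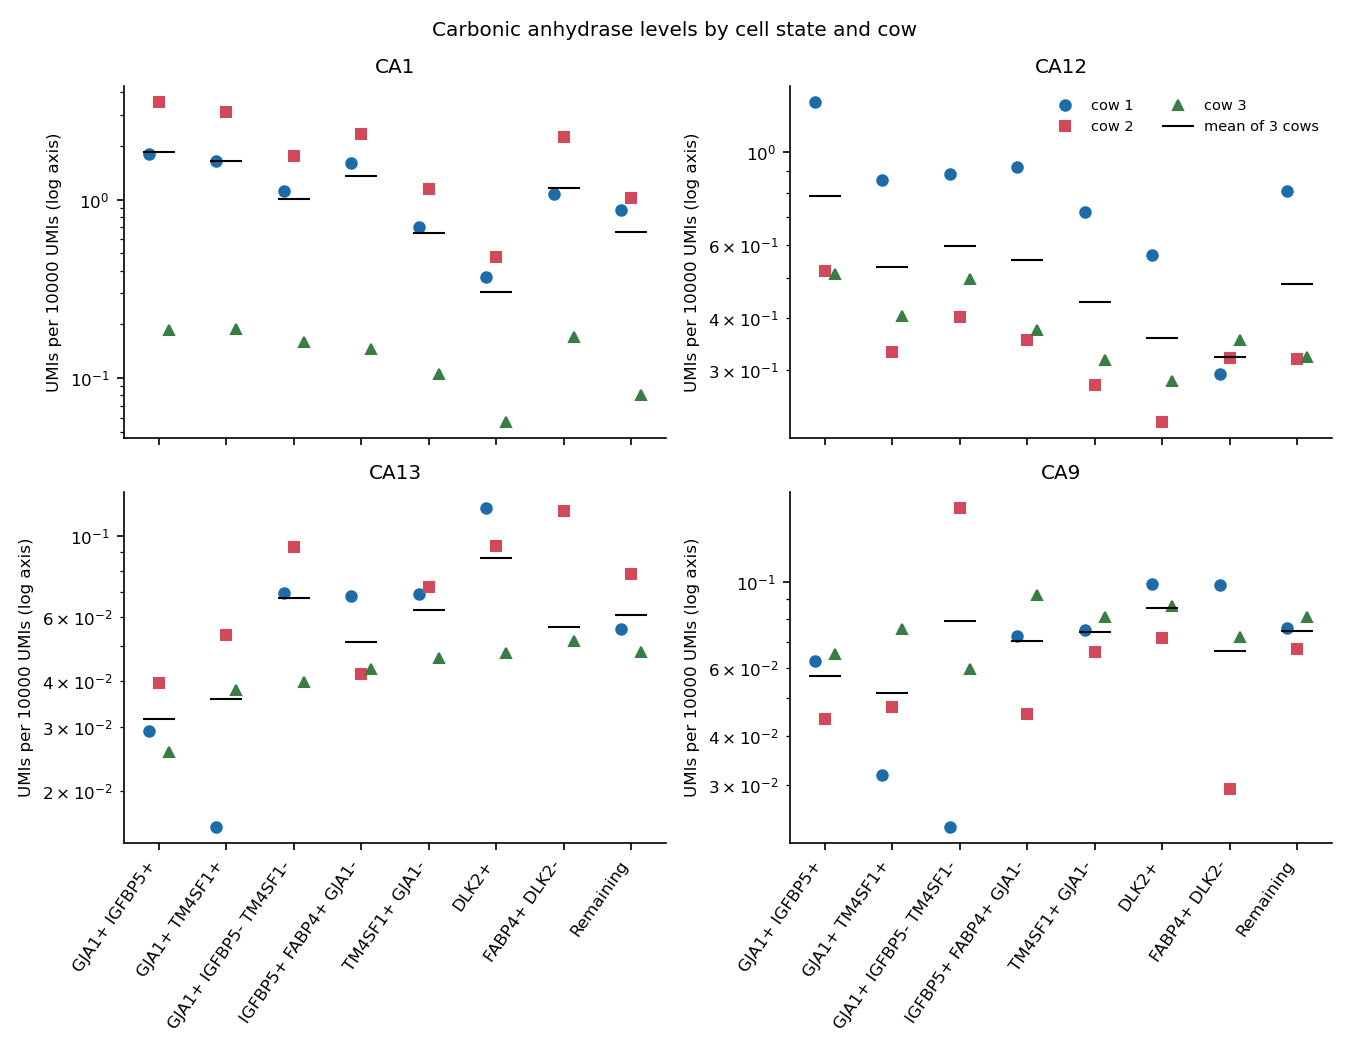
Levels of CA1, CA12, CA13 and CA9 in the 8 cell states, in UMIs per 10000 UMIs on log axes, with 1 point per cow and a bar at the mean of the 3 cows. CA1 and CA12 are higher and CA13 and CA9 lower in GJA1+ IGFBP5+ than in DLK2+ cells of every cow; CA13 has no point for cow 1 in FABP4+ DLK2- cells, where it had 0 UMIs.

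CA2, CA4 and CA14 did not pass the filter on low counts and have no test. CA2 had 20 UMIs in DLK2+, 27 in TM4SF1+ and 29 in the remaining cells, and 4 in GJA1+ IGFBP5+ cells. CA4 had 4, 12 and 5 UMIs in the DLK2+ cells of cows 1, 2 and 3 and none in 1237 IGFBP5+ FABP4+ cells. When the filter was dropped, edgeR called CA4 lower in these cells (adjusted p = 0.013), but with 0 counts in 1 state its fitted fold change is not given. CA14 had at most 8 UMIs in any state.

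Counts of called members are to be read beside the share of all genes called. In GJA1+ IGFBP5+ against DLK2+ cells, 2 of the 4 members tested rose and 2 fell, where 48.9% of all genes were called, 21.4% higher and 27.5% lower. In GJA1+ TM4SF1+ cells 2 rose and 1 fell, beside 33.7% of all genes (16.2% higher, 17.5% lower). In IGFBP5+ FABP4+ cells it was also 2 and 1, beside 28.2% (13.0% higher, 15.2% lower). These shares are high enough that the counts of members alone say little, and the sizes and the values per cow carry the comparison. In GJA1+ IGFBP5- TM4SF1- cells 2 members rose, beside 10.5% of all genes (5.53% higher, 4.98% lower), and in TM4SF1+ cells 2 rose, beside 14.2% (7.92% higher, 6.28% lower). In FABP4+ cells without DLK2 1 member rose, beside 7.85% (3.83% higher, 4.02% lower), and in the remaining cells 2 rose, beside 3.88% (2.53% higher, 1.35% lower). Every member that rose in these 7 contrasts was CA1 or CA12, and every one that fell was CA13 or CA9. The median log2 fold change of all genes in the 8 contrasts run lay between -0.10 and 0.03.

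**Figure D3:**
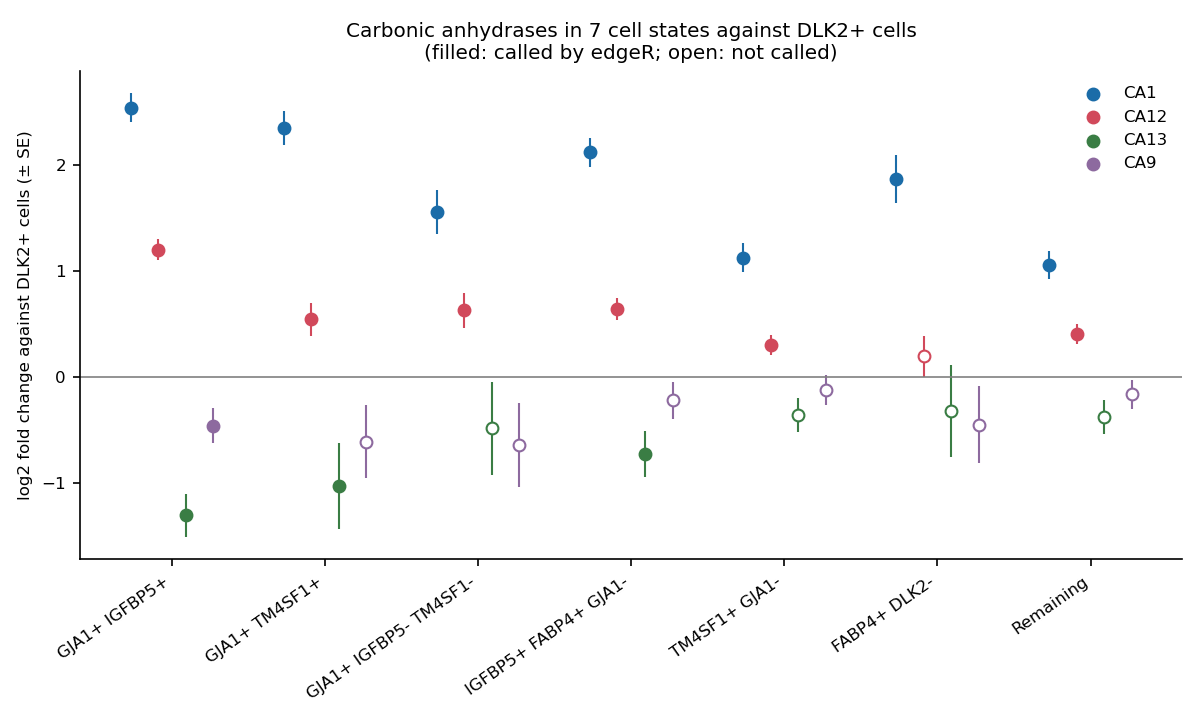
Log2 fold change of CA1, CA12, CA13 and CA9 in each of 7 cell states against DLK2+ cells, with the standard error of the edgeR fit (spread pooled over 24 sums from 3 cows), filled where called. CA1 is above 1 in all 7 states, while CA12 stays between 0.19 and 1.20 and CA13 and CA9 lie below 0.

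These calls depend on comparing states within a cow. With the cow left out of the edgeR model the log2 fold change of CA1 in GJA1+ IGFBP5+ cells was 2.73 ± 1.28 (SE; adjusted p = 0.19) and that of CA12 1.26 ± 0.47 (adjusted p = 0.088). CA13 in the same contrast kept its call, at -1.34 ± 0.40 (adjusted p = 0.030), and no other member kept one in any of the 8 contrasts. The states are parts of the same 3 libraries, which is why the cow was in the model.

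The members were then read against the UMIs of each state gene alone, with no other gate. These levels are descriptions of cells within each cow and were not tested. Groups by raw UMIs of a gene can also sort cells by depth, and the part of depth in these series was not tested. CA1 was lower the more DLK2 UMIs a cell held. From cells with 0 DLK2 UMIs to cells with 4 or more, its level went from 1.32 to 0.198 UMIs per 10000 in cow 1, from 1.90 to 0.598 in cow 2 and from 0.106 to 0.0331 in cow 3, the last from 3 UMIs in 81 cells. CA1 was higher with more FABP4, from 0.839 to 2.10 in cow 1, from 1.16 to 3.49 in cow 2 and from 0.0857 to 0.203 in cow 3. In all 3 cows each step of these 2 series went in the stated direction.

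CA12 was higher in each further group of IGFBP5 in all 3 cows, and in each further group of GJA1 in cows 1 and 3. From 0 to 4 or more GJA1 UMIs it went from 0.712 to 1.47 UMIs per 10000 in cow 1, from 0.280 to 0.550 in cow 2 and from 0.319 to 0.543 in cow 3. With IGFBP5 it went from 0.612 to 1.22, from 0.224 to 0.468 and from 0.280 to 0.448. CA12 was also higher in the last than in the first group of FABP4, at 1.42 against 0.796, 0.426 against 0.289 and 0.427 against 0.327. CA1 was higher in each further group of IGFBP5 in all 3 cows, from 0.505 to 1.52, from 0.839 to 2.41 and from 0.0796 to 0.125. Along GJA1, CA1 went from 0.729, 1.12 and 0.0868 without a UMI to 2.02, 3.98 and 0.185 with 2 to 3, and was lower again with 4 or more (1.84, 3.50 and 0.178). Along TM4SF1, CA1 went from 0.942 to 1.21 in cow 1, from 0.980 to 1.88 in cow 2 and from 0.0869 to 0.119 in cow 3, and only in cow 2 was each further group higher. CA12 went from 0.822 to 0.995, from 0.289 to 0.323 and from 0.333 to 0.318 along TM4SF1, so cow 3 did not share the direction of the others. CA13 was higher with 4 or more DLK2 UMIs than with none, from 0.0434 to 0.123 in cow 1, from 0.0579 to 0.0889 in cow 2 and from 0.0442 to 0.0663 in cow 3.

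**Figure D4:**
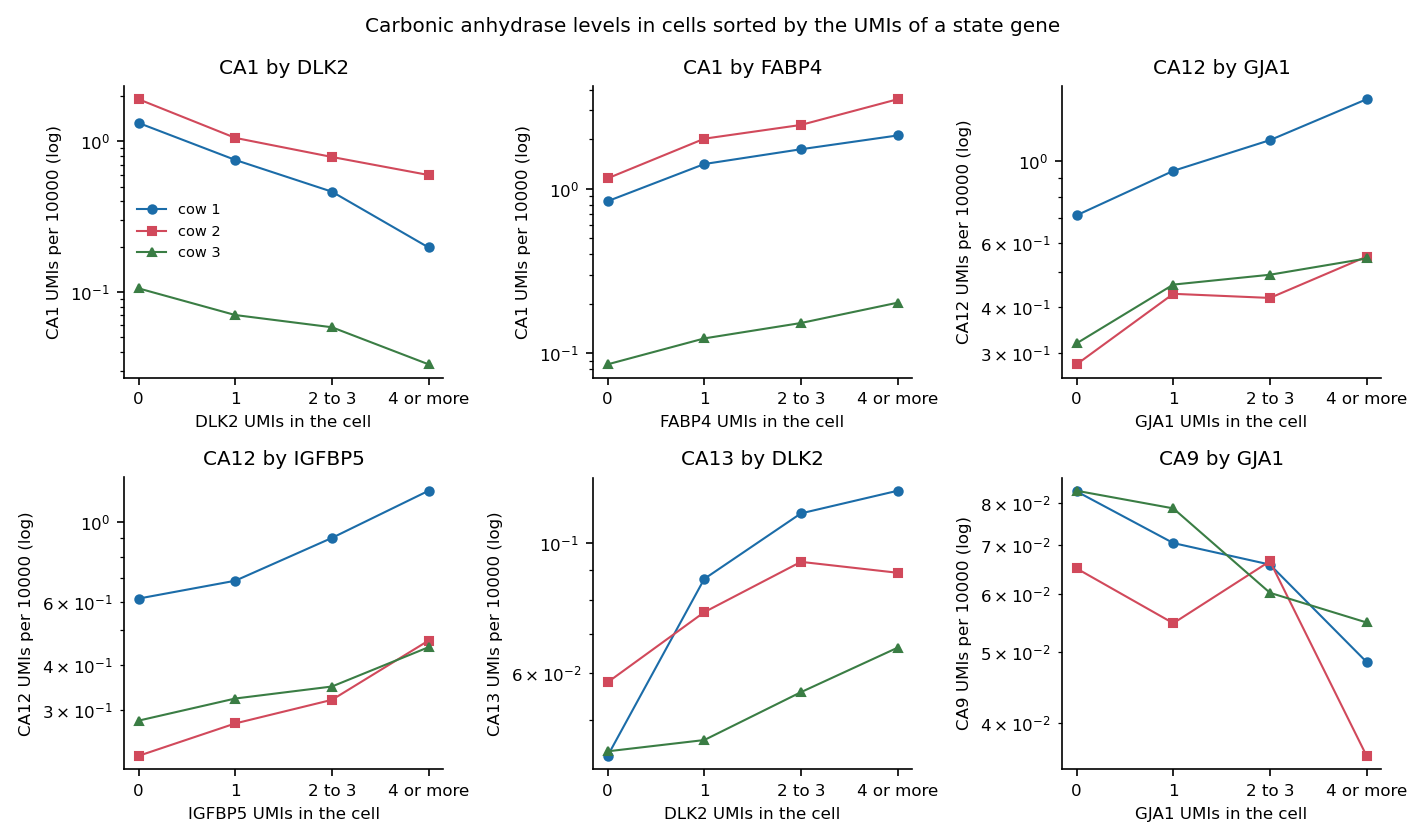
Levels of carbonic anhydrases, in UMIs per 10000 UMIs on log axes, in cells grouped by the number of UMIs of 1 state gene, with 1 line per cow. In all 3 cows CA1 is lower in each further group of DLK2 and higher in each further group of FABP4, CA12 is higher in the last than in the first group of GJA1 and IGFBP5, CA13 is higher in the last than in the first group of DLK2, and CA9 is lower in the last than in the first group of GJA1 (from 0.0829 to 0.0485, 0.0650 to 0.0361 and 0.0831 to 0.0549 in cows 1, 2 and 3).

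The share of cells with a UMI was taken at equal depth. After each cell was thinned to 5000 UMIs and sorted again by the same gates, CA1 was found in 54.3%, 74.5% and 7.81% of GJA1+ IGFBP5+ cells of cows 1, 2 and 3 and in 11.6%, 14.9% and 2.69% of DLK2+ cells. CA12 was found in 44.7%, 26.4% and 25.8% of GJA1+ IGFBP5+ and in 21.6%, 10.3% and 12.9% of DLK2+ cells. In GJA1+ TM4SF1+ cells the thinned share with CA1 was 57.5%, 76.3% and 11.9%, above that of GJA1+ IGFBP5+ cells in every cow, while the level over all cells of these states was higher in GJA1+ IGFBP5+ cells in cows 1 and 2. The thinned GJA1+ TM4SF1+ group held 40, 114 and 42 cells in cows 1, 2 and 3, against 47, 95 and 73 before. Cells that lose their IGFBP5 UMIs in thinning can enter it, so it is not the same set of cells. The share in cow 3 is 5 of 42 cells. Without thinning, the shares for CA1 were 82.6%, 94.1% and 23.0% against 19.0%, 22.4% and 5.01%. Thinning left out 1518 of the 20728 cells. At least 5000 UMIs were present in 1602 of the 1644 GJA1+ IGFBP5+ and in 4321 of the 4724 DLK2+ cells, and after thinning the gates found 787 and 3528 cells of these states. The matrix holds no cell type that should lack these genes, so the share that free RNA gives could not be set.

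For CA13 the thinned shares were 1.29%, 1.82% and 0.391% in GJA1+ IGFBP5+ cells and 6.77%, 4.64% and 2.40% in DLK2+ cells, from 9 and 145 cells in all. For CA9 the shares before thinning were 9.18% of all GJA1+ IGFBP5+ and 7.43% of all DLK2+ cells, and after thinning 1.52% and 4.37%. The order before thinning goes against the levels per 10000 and is not read.

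Genes whose levels ran most like those of a member were picked by Pearson's r of log2 CPM over the 24 sums of 8 states and 3 cows, with each cow's mean taken out. These sums share 3 libraries and differ in depth, so r is a description. The genes nearest to CA1 were FABP5 (r = 0.98), which encodes a fatty acid binding protein, ENSBTAG00000036116 (r = 0.97) and TST (r = 0.96), the mitochondrial thiosulfate sulfurtransferase. Nearest to CA12 were EPN1 (r = 0.96), an endocytic adaptor, GFRA2 (r = 0.95), a receptor for neurturin, and SLC4A9 (r = 0.94), an anion exchanger. CA1 and CA12 had r = 0.61 with each other. In the 26 FABP4+ DLK2- cells of cow 1, CA12 had 6 UMIs (0.294 per 10000), below its level in every other state of that cow. This small sum weighs as much in the r of CA12, also with SLC4A9, as the others.

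The genes nearest to CA13 were MMD (r = 0.96), FAM118B (r = 0.95) and TAF1A (r = 0.94). Those nearest to CA9 were TBC1D2 (r = 0.91), C11H9orf78 (r = 0.87) and ALKBH3 (r = 0.86). CA13 had 0 UMIs and CA9 2 UMIs in the 26 FABP4+ DLK2- cells of cow 1, and sums this small weigh as much in r as the others. CA9 and CA13 had r = 0.02 with each other. CA12 and CA13 had r = 0.37, CA1 and CA9 -0.39, CA1 and CA13 -0.30 and CA9 and CA12 -0.25.

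Partners in the handling of bicarbonate and protons were taken as a list of 31, which also holds monocarboxylate carriers and water channels. Of these, 26 are named in the file and 15 had enough UMIs to test. In GJA1+ IGFBP5+ against DLK2+ cells, 8 of the 15 rose, 2 fell and 5 were not called, beside the 48.9% of all genes. The 3 with the largest called change were SLC9A2, a sodium-proton exchanger (log2 fold change 4.77 ± 0.26), SLC16A7, a monocarboxylate carrier (-3.15 ± 0.26), and AQP5, a water channel (2.46 ± 0.13). SLC4A9, named above for its likeness to CA12, had a log2 fold change of 1.17 ± 0.11. The median of the 15 was 0.45, beside -0.08 for all genes tested. In GJA1+ TM4SF1+ cells 6 of these 15 rose and 2 fell, where 16.2% of all genes rose and 17.5% fell. In GJA1+ IGFBP5- TM4SF1- cells it was 5 and 1 (5.53% and 4.98% of all genes), in IGFBP5+ FABP4+ cells 5 and 1 (13.0% and 15.2%) and in TM4SF1+ cells 4 and 1 (7.92% and 6.28%). In FABP4+ cells without DLK2 2 rose and 1 fell (3.83% and 4.02%), and in the remaining cells 4 rose and 2 fell (2.53% and 1.35%).

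A list of 14 genes that hypoxia is known to induce, set beside CA9, had members called in both directions. Of the 12 tested in GJA1+ IGFBP5+ against DLK2+ cells, 5 rose, 4 fell and 3 were not called, where 21.4% of all genes rose and 27.5% fell. The median log2 fold change of the 12 was -0.06, beside -0.08 for all genes. Summed, the list stood at 19.4, 20.9 and 25.9 UMIs per 10000 in GJA1+ IGFBP5+ cells of cows 1, 2 and 3. In DLK2+ cells it stood at 13.8, 13.5 and 16.3. A sum weighs each gene by its UMIs, so it can differ from the median. The relation of CA9 to hypoxia was not tested. EGLN3, an oxygen-sensing prolyl hydroxylase, fell by 1.60 on the log2 scale (SE 0.21) and LDHA, lactate dehydrogenase, rose by 1.27 ± 0.09. These 2 were chosen for their size after the values were seen.

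The carbonic anhydrases outside the 7 members were compared in the same contrast. CA5B, a mitochondrial form with 1384 UMIs, was lower in GJA1+ IGFBP5+ than in DLK2+ cells in 3 of 3 cows (log2 fold change -0.75 ± 0.18, SE; adjusted p = 0.00078, edgeR). CA11, a related protein without the catalytic activity, was higher in 3 of 3 cows (0.85 ± 0.22; adjusted p = 0.0019). CA3, a muscle form, was not called (-0.05 ± 0.21; adjusted p = 0.85). CA5A, CA7 and CA8 had 16, 2 and 13 UMIs, and CA10 had 0 in 20728 cells, which allows a share of up to 0.0145% of cells with a UMI (a limit for counting error over the pooled cells, not for the spread between cows).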

How the data were processed

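Cells of 3 cows were sequenced as droplet libraries. The authors aligned the reads with Cell Ranger 3.1.0 to the bovine assembly ARS-UCD1.2, kept cells by their numbers of genes and UMIs and by mitochondrial share, identified doublets with DoubletFinder and kept epithelial cells. The deposited matrix holds these UMI counts as whole numbers, not normalized. The authors also deposited natural log values (1 plus UMIs scaled to 10000 per cell), which followed from the counts within 1e-06 and served for gene names and this check. The suffix of a barcode was read as the number of the cow.

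Cells were sorted by the UMIs of 5 genes (positive with at least 1 UMI), and counts were summed per cow and state into 24 sums of at least 10 cells. edgeR 4.0.16 in R 4.3.3 was run with TMM, filterByExpr (10895 genes kept), the quasi-likelihood test, the cow as a block and the adjustment of Benjamini and Hochberg within each contrast. A gene was called at an adjusted p under 0.05 and an absolute log2 fold change above 0.25. Standard errors are the fold change divided by the root of F, with a spread pooled over all 24 sums. The block follows from the design, since the sums of a number come from the same animal, and sums of the same cow deviated together (mean r of 0.435, 0.428 and 0.501 in cows 1, 2 and 3, lowest 0.133). Sums of different cows had a mean r of -0.261. Each state's mean over the cows was taken out first, so this value follows largely from those within cows and is no separate evidence. The pipeline was tested on simulated data, drawn as independent counts with known changes, and no result here rests on that test. An exact permutation test over 3 cows cannot go below p = 0.25, so levels are given as mean ± SD.

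The members, the states and the lists were chosen with earlier results of these data known. Genes named singly are the members, the other carbonic anhydrases, the state genes, the cell type markers, the 3 genes most like each tested member, and the 3 called genes of largest change in the list of bicarbonate and proton partners, plus those marked in the text as chosen afterwards. Alternatives were no block, DESeq2 1.42.0, no filter, each cow left out, gates at 2 UMIs, thinning to 5000 UMIs (1518 shallower cells left out), cells under 2% mitochondrial UMIs (270) or over 25000 UMIs (513) left out, a log2 fold change above 1, and levels as means over cells. The RefSeq annotation at hand is of another assembly (ARS-UCD2.0), so it served only to say which genes lie near each other, and no coordinates are printed. Python 3.11.15 was used for the rest.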

Additional observations from a re-analysis of the deposited data

How the results depend on the processing

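The main limits are 3 cows with 1 library each and the few UMIs of CA9 and CA13. Under 10 alternatives (9 for CA13, which did not pass the filter on low counts after thinning), the log2 fold changes of the 4 tested members kept their direction and their side of the threshold in 263 of 312 cases, lost a call in 39, gained one in 5 and turned sign in 5. CA1 against DLK2+ cells lost its 7 calls only without the replicate block. The 5 that turned sign were not called in the main test. In FABP4+ DLK2- against DLK2+ cells CA12 was -0.15 without the block and ran from -0.25 to 0.40 with 1 replicate left out (negative without replicate 3), and CA13 ran from -0.59 to 0.066 (positive without replicate 1). CA9 in GJA1+ IGFBP5+ against GJA1+ TM4SF1+ cells was -0.64 after thinning and ran from -0.058 (without replicate 1) to 0.40. The causes were not tested. Of the levels, 24 moved by more than the SD over cows and 256 did not. For CA1 that SD was close to the mean (1.84 ± 1.67 per 10000 in GJA1+ IGFBP5+ cells), so this count says little about CA1.

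Counts are given below in the order GJA1+ IGFBP5+, GJA1+ TM4SF1+, GJA1+ IGFBP5- TM4SF1-, IGFBP5+ FABP4+ GJA1-, TM4SF1+ GJA1-, FABP4+ DLK2- and remaining cells against DLK2+, and then GJA1+ IGFBP5+ against GJA1+ TM4SF1+. The main test called 4, 3, 2, 3, 2, 1, 2 and 1 members and 5327, 3671, 1146, 3075, 1547, 855, 423 and 327 genes. Without the replicate block edgeR called 1 member in the first contrast (3 at an unadjusted p under 0.05) and 0 in the other 7 (0 unadjusted in each of them; the DESeq2 fit with the block called 2, 2, 3, 1, 1, 2 and 1), and 1372, 1319, 115, 146, 10, 16, 4 and 3 genes. With a log2 fold change above 1 the genes were 1592, 1611, 367, 716, 232, 286, 68 and 141, and the members were 3, 2, 1, 1, 1, 1, 1 and 0, by the construction of that threshold.

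Thinning to 5000 UMIs gave 2950, 1962, 1800, 1607, 1004, 1283, 810 and 101 genes, and 3, 1, 2, 2, 1, 1, 2 and 1 of the 3 members then tested. Gates at 2 UMIs gave 3, 2, 4, 3, 3, 3, 2 and 1 members, with 3034 genes for GJA1+ IGFBP5- TM4SF1- and 2068 for FABP4+ DLK2- cells. DESeq2 called 4, 2, 2, 3, 1, 1, 2 and 1 members, and 268 genes in the remaining cells. Without the filter 718 genes were called in the remaining cells and 595 in the last contrast, which gave 200 without the cells under 2% mitochondrial UMIs. Leaving out 1 replicate gave 3 members in the first contrast each time, and 1 to 3, 1 to 2, 2 to 3, 1 to 2, 1, 1 to 2 and 0 to 1 in the others (1 or 2 at an unadjusted p under 0.05 in the last). The genes ran from 4177 to 4790, 2340 to 3072, 326 to 923, 1835 to 2413, 668 to 1228, 176 to 559, 107 to 365 and 133 to 195. The replicate numbers are the cows, and the causes of these shifts were not tested.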

Other observations

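CA3, which is not among the 7 members, separated the cows more than CA1 did. Its levels over all cells were 0.754, 0.00559 and 0.0571 UMIs per 10000 in cows 1, 2 and 3. Cow 1 stood 135-fold above cow 2, the 4th widest ratio among 7716 genes with at least 1000 UMIs. Cow 1 was the highest and cow 2 the lowest in each of the 8 cell states. CA1, which follows CA3 in the RefSeq annotation of assembly ARS-UCD2.0, was highest in cow 2, and in cow 1 it had a UMI in 27.3% of the thinned cells with CA3 and 28.7% of those without. How reads that match more than 1 carbonic anhydrase were counted was not examined here.

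The share of cells with CA1 was higher among cells with CA12 than among cells without it. After thinning, CA1 had a UMI in 36.1% of the cells with CA12 and 24.9% of those without in cow 1, and in 41.9% and 30.0% in cow 2. In cow 3, where CA1 was low, the shares were 4.41% and 4.13%. CA1 had a UMI in 13.8%, 26.5% and 1.30% of the cells with CA13 in cows 1, 2 and 3, which numbered 94, 268 and 230. Of the cells without CA13 it was found in 28.9%, 31.8% and 4.24%. CA12 had a UMI in 35.1%, 15.7% and 9.57% of the cells with CA13 and in 30.8%, 13.0% and 14.8% of those without. For CA12, cow 3 thus went the other way from cows 1 and 2. Cells of a cow are not replicates, and no test was made.

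Of 9 genes of the cell cycle tested against DLK2+ cells, 7 rose in GJA1+ IGFBP5+, 4 in GJA1+ TM4SF1+ and 1 in GJA1+ IGFBP5- TM4SF1- cells, where 21.4%, 16.2% and 5.53% of all genes rose. In IGFBP5+ FABP4+, TM4SF1+, FABP4+ DLK2- and the remaining cells 9, 8, 8 and 5 rose, beside 13.0%, 7.92%, 3.83% and 2.53% of all genes, and none fell in any of the 7 contrasts. Their summed level in GJA1+ IGFBP5+ cells was 2.15, 1.61 and 3.64 UMIs per 10000 in cows 1, 2 and 3, against 1.47, 0.869 and 3.71 in DLK2+ cells, so it was higher in cows 1 and 2 and not in cow 3. Over all cells their summed levels were 2.32, 1.39 and 5.27 UMIs per 10000 in cows 1, 2 and 3. Any relation of these levels to CA1 was not tested.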
